A study of Mus musculus with 23 samples.

Results

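Chemokines are small secreted proteins that draw leukocytes along a gradient, and their receptors sit in the membrane of the cells that follow it. The genes described here are those whose symbols name a C, CC, CXC or CX3C chemokine ligand, its receptor or an atypical chemokine receptor. They were 44 of the 16962 genes in the epididymal fat table, 29 of them ligands and 15 receptors. Of these, 21 were also among the 12831 genes of the quadriceps table, 15 ligands and 6 receptors, and the quadriceps table held none that fat lacked. Together the tables hold 17194 genes. Another 16 annotated mouse genes with such symbols, Ccl20, Ccl21a, Ccr3, Ccr6 and Cxcr1 among them, were not analysed here.

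The study asked how interleukin-6 (IL-6) made by pancreatic cancer cells bears on wasting of muscle and fat. Male C57BL/6J mice, 8 weeks old at surgery, received KPC cells in the pancreas, KPC IL6KO cells in the pancreas, or a sham operation (no tumor). KPC cells came from a pancreatic tumor of a male mouse with Cre-activated oncogenic alleles, among them mutant Trp53, under Pdx1-Cre. The KPC line is a single clone transfected without guide RNA, and KPC IL6KO is a single clone in which CRISPR/Cas9 disrupted Il6. The hosts were not edited and could make IL-6 themselves, so Il6 in host tissue cannot check the labels of the 2 tumor lines, and a difference between the lines may include any other difference between 2 clones. All animals were taken when the KPC group was overtly wasted. Quadriceps was taken from 3 sham-operated mice and from 4 mice with each tumor line, and fat from 4 mice of each group, 23 libraries in all. The labels number the muscle libraries 1 to 4 and the fat libraries 5 to 8, and the sources used here do not say whether any mouse gave both tissues.

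CXC ligands that carry an ELR motif, such as Cxcl1, act on neutrophils through Cxcr2. Ccl2, Ccl7 and Ccl12 draw monocytes through Ccr2, and Ccl3 and its relatives act through Ccr1 and other CC receptors. Cxcl9 and Cxcl10 draw activated T cells and natural killer cells through Cxcr3, whereas Cxcl12, Cxcl13 and Ccl19 organize resident and lymphoid cells. Atypical receptors bind chemokines without classical G protein signaling and remove or transport them. In bulk tissue, fewer cells of a type and less RNA per cell cannot be told apart.

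Total counts ranged from 19259763 to 74907810 per library in muscle and from 26306377 to 56308545 in fat. Levels are given as counts per 1000000 mapped counts (CPM) after TMM scaling, and 3 counts, taken as the floor, correspond to 0.0462 to 0.154 CPM in muscle and 0.0474 to 0.123 CPM in fat. Fat libraries of a group were much less alike than muscle libraries. The biological coefficient of variation fitted across all genes was 63.5% in fat and 22.7% in muscle. Genes of the epididymis, the duct beside this fat pad, split the fat libraries. Gpx5, which it makes in quantity, ranged from 21347 to 54957 CPM in no tumor 5 and 7, in every KPC library and in KPC IL6KO 6, and from 4.69 to 85.8 CPM in the remaining 5 libraries. Muscle fiber markers, likewise foreign to fat, summed to 0.672 to 3.84 CPM in KPC, 92.7 to 2298 CPM in KPC IL6KO and 7.04 to 262 CPM in no tumor fat. Fat library KPC IL6KO 6 stood apart from its group. It held the lowest value of the group for 30 of the 44 genes, and 35 of its 44 values fell within the no tumor range, against 9 to 19 in the other 7 tumor libraries. Counts of fat calls are therefore given with and without it, and so are single values whose call it changes. It was picked by its values for these same genes, most of them low, so leaving it out tilts the KPC IL6KO group upward. Calls made without it show how much that library weighs and are no further support. Adipocyte markers were present in every fat library (summed level 1467 to 24617 CPM), and muscle fiber markers in every quadriceps library (109635 to 173330 CPM).

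The ELR ligands Cxcl1, Cxcl2 and Cxcl3 are shown first, because they lie together on chromosome 5 and had few counts in no tumor fat and more in every KPC fat library. Cxcl5 shares these traits, and its window is not shown. The windows are the bases just before each start in the RefSeq promoter table for GRCm38.p6, at chr5:90891095-90891244, chr5:90903749-90903898 and chr5:90785951-90786100, all on the plus strand. The fourth window, before the start of the interferon-inducible ligand Cxcl10 at chr5:92348890-92349109 on the minus strand, is shown for contrast, since Cxcl10 levels overlapped in all fat groups. Capitals mark matches to the NF-kB consensus, overlapping ones on both strands joined, and, in Cxcl10, also the interferon-stimulated response element GAAANNGAAA, the first match in its window.
Cxcl1: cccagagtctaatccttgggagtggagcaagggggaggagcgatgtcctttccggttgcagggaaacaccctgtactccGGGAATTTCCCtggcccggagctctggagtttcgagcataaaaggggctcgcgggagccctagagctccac
Cxcl2: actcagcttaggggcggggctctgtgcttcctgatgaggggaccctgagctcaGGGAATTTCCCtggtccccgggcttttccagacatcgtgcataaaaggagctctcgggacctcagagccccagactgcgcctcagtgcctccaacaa
Cxcl3: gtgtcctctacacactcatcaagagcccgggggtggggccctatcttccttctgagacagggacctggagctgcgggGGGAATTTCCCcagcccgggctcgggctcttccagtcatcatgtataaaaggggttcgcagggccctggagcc
Cxcl10: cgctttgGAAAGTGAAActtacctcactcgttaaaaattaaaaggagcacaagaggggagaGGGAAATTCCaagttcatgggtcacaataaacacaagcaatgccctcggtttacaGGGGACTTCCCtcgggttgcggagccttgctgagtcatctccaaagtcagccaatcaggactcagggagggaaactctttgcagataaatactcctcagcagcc

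The windows of Cxcl1, Cxcl2 and Cxcl3 held the same NF-kB letters, GGGAATTTCCC, which began 71, 97 and 73 bases before the start. Of the 44 genes, 32 had an entry in the table (250 bases before to 50 after the start), and 8 of these (25%) held the NF-kB consensus, against 8.46% of all 32851 promoters. The 8 were Cxcl1, Cxcl2, Cxcl3, Cxcl10, Ccl9, Ccl27a, Ccr1 and Ackr2. A match and a higher level in KPC fat did not always go together. Cxcl1, Cxcl2, Cxcl3, Ccl9 and Ccr1 had both, whereas Cxcl10, Ccl27a and Ackr2 had a match and overlapped no tumor. Ccl8, Ccl12 and Cxcl13 were higher in every KPC library than in no tumor and had an entry without a match. Cxcl5, higher as well, was not among the 8. GAAANNGAAA was found in Cxcl10, Ccl19 and Cxcl14 (9.38%, against 3.44% of all promoters), and the STAT element TTCNNNGAA in Ccl17 and Cxcl14 (6.25%, against 8.3%). TGANTCA, the AP-1 element, was found in 5 of the 32 (15.6%, against 7.81%). These are matches of letters in a window, searched on both strands, and nothing here measured binding.

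In fat, chemokines of neutrophil and monocyte traffic stood well above the no tumor level in KPC mice. In KPC against no tumor, 19 of 44 genes were higher in all 4 KPC libraries than in all 4 no tumor libraries and 1, Cxcr6, was lower in all (6.52% and 4.39% of all fat genes). The edgeR quasi-likelihood test, with calls at a false discovery rate (FDR) of at most 0.05 over the whole table and a fold change of at least 1.5, called 0 of the 44 genes higher and 0 lower (0% of all fat genes). The lowest FDR of any fat gene in this comparison was 0.0704. At an unadjusted p of at most 0.05 the test had 17 of the 44 higher and 3 lower (6.26% and 5.9% of all genes). The edgeR likelihood ratio test, which takes less account of how uncertain each gene's spread is, called 13 higher and 1 lower (1.58% and 0.855%), and the DESeq2 Wald test 14 higher and 2 lower (2.16% and 1.31%). The median log2 fold change was 0.71 over the 44 genes and -0.10 over all genes.

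In KPC IL6KO fat against no tumor the quasi-likelihood test called 0 higher and 0 lower (0%), and 21 of the 44 genes were higher and none lower at an unadjusted p of at most 0.05 (8.17% and 1.17% of all genes). The likelihood ratio test called 10 higher (1.23%) and DESeq2 12 (1.7%), both with none lower (0% and 0.0242%). Ccl8, Cxcl1 and Ccl19 were higher in all 4 KPC IL6KO libraries than in all no tumor libraries (3 of 44, against 1.52% of all genes), and no gene was lower in all (0.489%). The median log2 fold change was 1.32 over the 44 genes and -0.03 over all genes. The calls that follow leave out KPC IL6KO 6, a library picked by its low values for these same genes, and lean toward higher KPC IL6KO levels. When KPC IL6KO 6 was left out, 1 of the 44 genes, Ccl8, passed the quasi-likelihood test in each tumor group. It was higher in KPC (0.0825% of all genes) and higher in KPC IL6KO (0.0707%), and none was lower (0.0059% in each). The likelihood ratio test then called 16 genes higher and 1 lower in KPC (2.51% and 1.02%) and 18 higher and 0 lower in KPC IL6KO (5.17% and 2.03%). In the 3 remaining KPC IL6KO libraries 23 genes lay above every no tumor library and 0 below (7.63% and 4.27%). The 2 comparisons share the no tumor libraries, so their values are given side by side and not as independent. With Gpx5 and Crisp1 as covariates the KPC IL6KO log2 fold changes were smaller, at 0.82 for Ccl2 (2.57 without the covariates), 1.10 for Ccl7 (2.41), 1.43 for Cxcl13 (2.95), 1.57 for Ccl9 (2.71) and 1.995 for Ccl6 (3.19), each with a quasi-likelihood FDR of 0.967. The KPC log2 fold changes of the same genes against no tumor did not shrink. They were 3.935 for Ccl2, 3.08 for Ccl7, 4.87 for Cxcl13, 3.42 for Ccl9 and 4.28 for Ccl6 (quasi-likelihood FDR 0.03635 to 0.1087). For these genes KPC against KPC IL6KO with the covariates is not given.

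**Figure D1:**
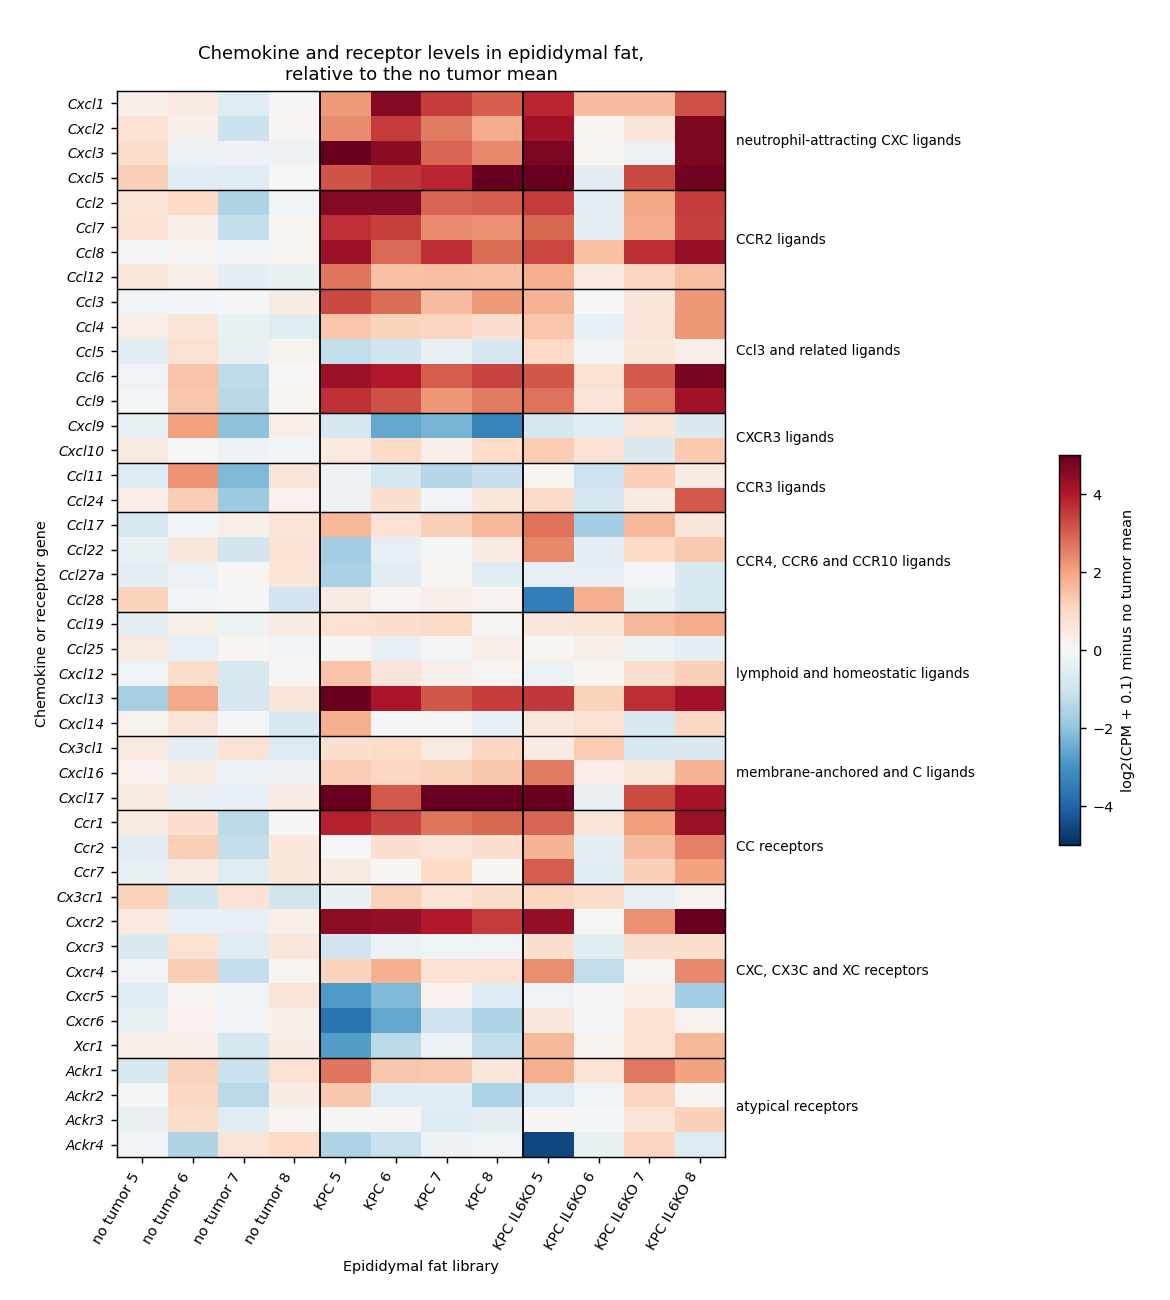
Level of 43 of the 44 chemokine and receptor genes (rows, grouped by role) in the 12 epididymal fat libraries (columns), as log2(CPM + 0.1) minus the mean of the 4 no tumor libraries, with colors limited to -5 and 5. Red blocks run through the neutrophil-attracting ligands, the CCR2 ligands, Ccl6, Ccl9, Cxcl13, Cxcr2 and Ccr1 in KPC and KPC IL6KO, KPC IL6KO 6 is pale, and Cxcl9, Cxcr6 and Xcr1 are blue in KPC.

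The 4 measured ligands of Cxcr2 did not overlap between no tumor and KPC fat. Cxcl1 was at 0.205, 0.242, 0.0697 and 0.142 CPM in no tumor 5 to 8, at 1.02, 5.96, 2.695 and 1.95 CPM in KPC 5 to 8, and at 3.46, 0.652, 0.654 and 2.26 CPM in KPC IL6KO 5 to 8. Every tumor library lay above every no tumor library. The log2 fold change of Cxcl1 was 4.14 ± 0.81 (SE) in KPC (quasi-likelihood FDR 0.168, likelihood ratio FDR 0.000772), or 3.51 without KPC 6, and 3.41 ± 0.78 in KPC IL6KO (FDR 0.385 and 0.0129). Cxcl5, made mainly by epithelial and stromal cells, spanned 0.0930 to 0.573 CPM in no tumor and 2.54 to 10.2 CPM in KPC, and was at 23.95, 0.103, 2.79 and 8.59 CPM in KPC IL6KO 5 to 8. KPC IL6KO 6 alone of the 8 tumor libraries lay in the no tumor range of Cxcl5, whose log2 fold changes were 4.41 ± 1.27 in KPC (FDR 0.247, likelihood ratio FDR 0.0213) and 5.23 ± 1.31 in KPC IL6KO (FDR 0.385 and 0.0116). They came to 5.23 and 6.04 without no tumor 5, the KPC value to 3.81 without KPC 8, and the KPC IL6KO value to 4.02 without KPC IL6KO 5.

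Cxcl2 spanned 0.0232 to 0.327 CPM in no tumor and 0.846 to 2.81 CPM in KPC, a log2 fold change of 3.13 ± 1.14 (FDR 0.326, likelihood ratio FDR 0.127, or 0.0370 without KPC IL6KO 6). In KPC IL6KO it spread over 4.64, 0.171, 0.297 and 6.54 CPM, with 2 libraries far above no tumor and 2 within its range (4.00 ± 1.18, FDR 0.394, likelihood ratio FDR 0.0449, and 3.23 without KPC IL6KO 8). Cxcl3 had 3, 0, 0 and 0 counts in no tumor 5 to 8, at or under the floor in every library, and 202, 95, 24 and 17 counts in KPC. Its mean in KPC was at least 29.0-fold higher than the floor of 3 counts per no tumor library. KPC IL6KO 5 and 8 had 125 and 99 counts of Cxcl3 and KPC IL6KO 6 and 7 had 1 and 0, for a group mean at least 17.8-fold higher. The likelihood ratio FDR of Cxcl3 was 0.0730 in KPC and 0.168 in KPC IL6KO, and came to 0.0285 and 0.0270 without KPC IL6KO 6. Cxcl1, Cxcl2 and Cxcl3 are close relatives, and reads that fit more than 1 of them were not counted.

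The receptor of these ligands, Cxcr2, which marks neutrophils, had 2, 0, 0 and 4 counts in no tumor fat. KPC 5 to 8 had 97, 94, 60 and 43 counts (1.40 to 2.83 CPM), and KPC IL6KO 5 to 8 had 108, 1, 18 and 148 counts (2.65, 0.0343, 0.535 and 4.52 CPM). The fitted log2 fold changes of 5.82 ± 1.39 in KPC (FDR 0.212, likelihood ratio FDR 0.00326) and 5.61 ± 1.37 in KPC IL6KO (FDR 0.385 and 0.00999, 4.77 without KPC IL6KO 8) rest on a no tumor group near 0, so their size depends on the prior count. Of 12 neutrophil markers 7 were measured in fat. The likelihood ratio test called 3 of the 7 higher in KPC, S100a9, Retnlg and Mmp8, and 2 in KPC IL6KO. In each tumor group 6 of the 7 had positive log2 fold changes against no tumor. Their summed level was 10.8 to 774 CPM in no tumor, 43.8 to 165 CPM in KPC and 8.88 to 408 CPM in KPC IL6KO, with none at 0 in any library, and Ltf had the highest mean level among them. The medians of this sum went the other way, at 261, 80.7 and 115 CPM, and the sum is not read as a level of neutrophils. The part of neutrophils in the ligand levels was not tested.

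The 4 genes listed as CCR2 ligands, Ccl2, Ccl7, Ccl8 and Ccl12, likewise did not overlap between no tumor and KPC. Ccl8 showed the tightest baseline, at 4.17, 4.77, 4.12 and 4.98 CPM in no tumor 5 to 8. It was at 88.0, 32.8, 59.5 and 31.5 CPM in KPC and at 46.1, 12.6, 59.2 and 94.3 CPM in KPC IL6KO, so that even KPC IL6KO 6 was above every no tumor library. The group means were 4.51 ± 0.432 (SD, n = 4) CPM in no tumor, 52.96 ± 26.7 in KPC and 53.02 ± 33.8 in KPC IL6KO. Its log2 fold changes were 3.55 ± 0.55 in both tumor groups (FDR 0.0763 in KPC and 0.313 in KPC IL6KO, likelihood ratio FDR 1.26e-06 and 4.95e-06). Without KPC IL6KO 6 they were 3.55 ± 0.38 (FDR 0.0190) and 3.88 ± 0.39 (FDR 0.0185).

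Ccl2, the prototype monocyte chemoattractant, spanned 0.372 to 2.63 CPM in no tumor and was at 32.6, 32.7, 9.97 and 10.8 CPM in KPC 5 to 8. In KPC IL6KO 5 to 8 it was at 15.2, 0.892, 5.05 and 15.1 CPM, 3 libraries above no tumor and KPC IL6KO 6 within it. The log2 fold change was 3.81 ± 0.90 in KPC (FDR 0.212, likelihood ratio FDR 0.0040) and 2.57 ± 0.86 in KPC IL6KO (FDR 0.417 and 0.112). Without KPC IL6KO 6 the latter was 2.95 ± 0.71 (likelihood ratio FDR 0.00269). Ccl7 followed the same order, at 0.511 to 2.29 CPM in no tumor, 6.76 to 17.5 CPM in KPC and 0.926 to 15.1 CPM in KPC IL6KO (2.98 ± 0.76 in KPC, FDR 0.225, likelihood ratio FDR 0.0133, and 2.41 ± 0.75 in KPC IL6KO, FDR 0.396 and 0.0894, the latter 0.000954 without KPC IL6KO 6). Ccl12 ranged from 1.33 to 2.86 CPM in no tumor, from 5.50 to 5.59 CPM in 3 KPC libraries and from 2.74 to 7.07 CPM in KPC IL6KO, and was at 12.8 CPM in KPC 5. Its log2 fold change was 1.87 ± 0.44 in KPC (FDR 0.212, likelihood ratio FDR 0.0233) and 1.28 ± 0.44 in KPC IL6KO (FDR 0.424 and 0.279).

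Ccr2, the receptor of Ccl2, is carried by inflammatory monocytes. It spanned 7.58 to 39.5 CPM in no tumor and 17.0 to 31.6 CPM in KPC, which overlapped. In KPC IL6KO 5 to 8 it was at 56.4, 12.6, 51.1 and 101 CPM, and all but KPC IL6KO 6 lay above every library of the other groups (1.38 ± 0.60 over no tumor, FDR 0.521, likelihood ratio FDR 0.378, or 1.71 ± 0.51 without KPC IL6KO 6, likelihood ratio FDR 0.0226). Macrophage markers moved with these genes. All 8 of the 9 markers that were measured had positive log2 fold changes in both tumor groups, and the likelihood ratio test called 4 of the 8 higher in KPC (Cd68, Mrc1, Cd14 and Msr1) and 2 in KPC IL6KO (Cd14 and Msr1). Their sum was 204 to 870 CPM in no tumor, 979 to 1658 CPM in KPC and 350 to 2510 CPM in KPC IL6KO, with no marker at 0, and their part in the chemokine levels was not tested.

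**Figure D2:**
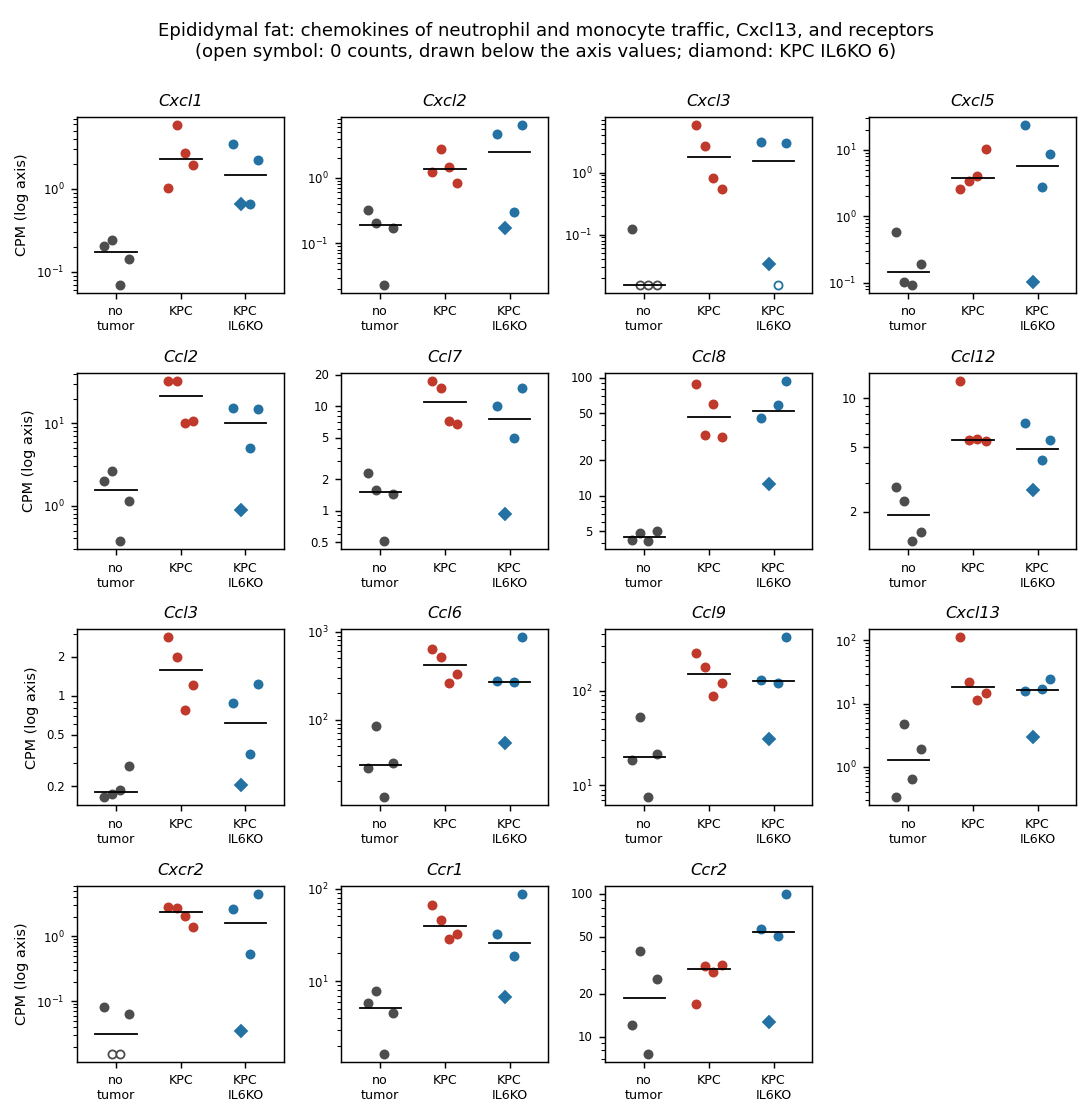
CPM (log axis) of 12 ligands and 3 receptors in epididymal fat, 1 point per library and a bar at the group median, with open symbols for 0 counts and a diamond for KPC IL6KO 6. For Ccl8 the no tumor points lie between 4.12 and 4.98 CPM and the 8 tumor points between 12.6 and 94.3 CPM, whereas for most other genes the diamond falls to the no tumor level.

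Among Ccl3, Ccl4, Ccl5, Ccl6 and Ccl9, 4 had positive log2 fold changes in KPC fat and Ccl5 a negative value. Ccl6, a macrophage-made CC ligand, was at 28.0, 85.6, 13.1 and 32.4 CPM in no tumor 5 to 8, at 631, 515, 261 and 330 CPM in KPC and at 272, 54.7, 264 and 862 CPM in KPC IL6KO. All KPC libraries were above no tumor, and so were all but KPC IL6KO 6 of the other tumor group. Its log2 fold change was 3.45 ± 0.80 in KPC (FDR 0.206, likelihood ratio FDR 0.00319) and 3.19 ± 0.79 in KPC IL6KO (FDR 0.385 and 0.0129). It came to 4.15 and 3.89 without no tumor 6, and in KPC IL6KO to 2.31 without KPC IL6KO 8. Ccl9, its neighbour on chromosome 11, ran in parallel, at 7.49 to 52.7 CPM in no tumor, 89.3 to 249 CPM in KPC and 31.1 to 370 CPM in KPC IL6KO (2.68 ± 0.74, FDR 0.234, likelihood ratio FDR 0.0202, and 2.71 ± 0.74, FDR 0.394 and 0.0288). These came to 3.34 and 3.37 without no tumor 6, and the latter to 1.92 without KPC IL6KO 8. Ccl3, a ligand of Ccr1, was at 0.164 to 0.285 CPM in no tumor, 0.775 to 2.83 CPM in KPC and 0.206 to 1.22 CPM in KPC IL6KO (3.04 ± 0.67 in KPC, FDR 0.191, likelihood ratio FDR 0.00499, and 1.70 ± 0.64 in KPC IL6KO, FDR 0.465 and 0.328). Ccl4 ranged from 0.0790 to 0.311 CPM in no tumor and from 0.390 to 0.613 CPM in KPC, without overlap (log2 fold change 1.40 with an unadjusted p above 0.05).

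The receptor Ccr1 stood at 5.81, 7.89, 1.65 and 4.51 CPM in no tumor 5 to 8 and at 65.8, 46.2, 28.3 and 32.5 CPM in KPC. In KPC IL6KO it was at 32.7, 6.79, 18.6 and 88.3 CPM, again with KPC IL6KO 6 inside the no tumor range. The log2 fold changes were 3.124 ± 0.73 (FDR 0.206, likelihood ratio FDR 0.00374) and 2.88 ± 0.72 (FDR 0.385 and 0.0138), the latter 1.97 without KPC IL6KO 8.

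Cxcl13, which draws B cells through Cxcr5 and is also made by macrophages, was at 0.327, 4.84, 0.651 and 1.93 CPM in no tumor 5 to 8. It was at 113, 22.3, 11.4 and 14.7 CPM in KPC and at 15.6, 2.92, 17.0 and 24.5 CPM in KPC IL6KO. KPC did not overlap no tumor, and KPC 5 was far above the rest. The log2 fold change was 4.38 ± 1.08 in KPC (FDR 0.225, likelihood ratio FDR 0.00434), 3.06 without KPC 5 and 5.34 without no tumor 6, and 2.95 ± 1.01 in KPC IL6KO (FDR 0.424 and 0.106), 3.92 without no tumor 6 and 3.30 ± 0.99 without KPC IL6KO 6 (likelihood ratio FDR 0.0142). The receptor Cxcr5 did not follow, at 0.368 to 1.03 CPM in no tumor, 0 to 0.741 CPM in KPC and 0.122 to 0.802 CPM in KPC IL6KO. B cell markers, of which 4 of 5 were measured, summed to 1.51 to 14.9 CPM, 2.02 to 4.08 CPM and 1.2001 to 8.03 CPM in no tumor, KPC and KPC IL6KO. Cxcl17, a chemokine of mucosal epithelia, had 2, 0, 0 and 5 counts in no tumor, 202, 36, 170 and 324 in KPC and 318, 0, 40 and 74 in KPC IL6KO (fitted 7.03 ± 1.69, FDR 0.218, likelihood ratio FDR 0.00501, and 5.99 ± 1.63, FDR 0.394 and 0.0258, with the same dependence on the prior count as Cxcr2). Without no tumor 8 these came to 7.75 and 6.71, and the latter to 4.70 without KPC IL6KO 5. Tff2, a secreted mucosal peptide of the gut epithelium list, was called higher in KPC by the likelihood ratio test as well.

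Cxcl16, a membrane-anchored ligand that can be shed and binds Cxcr6, spanned 9.997 to 16.1 CPM in no tumor and 25.15 to 31.6 CPM in KPC (1.16 ± 0.43, FDR 0.337, likelihood ratio FDR 0.222). In KPC IL6KO it was at 75.6, 15.7, 18.3 and 40.1 CPM (1.57 ± 0.44, FDR 0.394, likelihood ratio FDR 0.0628, and 0.97 without KPC IL6KO 5). Without KPC IL6KO 6 the latter was 1.82 ± 0.39 (likelihood ratio FDR 0.00168). Cxcl16 shares 18.27% of its exon bases with Zmynd15 on the other strand, and whether reads were counted by strand is not given in the sources used here. Cx3cl1, the other membrane-anchored ligand, followed the split in Gpx5. It ranged from 45.1 to 79.8 CPM in the 7 libraries high in Gpx5 and from 19.3 to 44.03 CPM in the remaining 5. Ackr1, on venule endothelium, was at 0.837 to 4.26 CPM in no tumor, 2.83 to 12.5 CPM in KPC and 3.05 to 11.9 CPM in KPC IL6KO (1.67 ± 0.66 in KPC IL6KO, FDR 0.487). It shares 25.69% of its exon bases with Cadm3 on the same strand. Ccl19, a ligand of Ccr7, spanned 0.737 to 1.47 CPM in no tumor and 1.64 to 4.13 CPM in KPC IL6KO, without overlap (1.31 ± 0.45, FDR 0.424, likelihood ratio FDR 0.271).

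Cxcl9 and Cxcr6 had negative log2 fold changes in KPC fat against no tumor. Cxcl9, the interferon-gamma-induced ligand of Cxcr3, was at 9.13, 47.5, 2.65 and 14.3 CPM in no tumor 5 to 8, at 6.13, 1.86, 2.19 and 1.04 CPM in KPC and at 6.11, 7.96, 17.9 and 6.85 CPM in KPC IL6KO. KPC 6, 7 and 8 lay below every no tumor library, and KPC 5 overlapped. The log2 fold change in KPC was -2.71 ± 0.84 (FDR 0.276, likelihood ratio FDR 0.0494), and came to -1.63 without no tumor 6 and -3.43 without KPC 5. Cxcr6, a receptor of tissue-resident T and natural killer cells, had 22, 39, 44 and 89 counts in no tumor, 0, 4, 15 and 10 in KPC and 71, 31, 69 and 43 in KPC IL6KO. In CPM this was 0.900 to 1.41, 0 to 0.505 and 1.06 to 2.05, so that KPC lay below both other groups. The log2 fold change was -2.30 ± 0.86 against no tumor (FDR 0.334, likelihood ratio FDR 0.0638, and -2.98 without KPC 7).

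Over all 12 libraries the 2 tumor groups overlapped in each ligand and receptor of neutrophils and monocytes described above. In KPC against KPC IL6KO fat the quasi-likelihood test called 0 of 44 genes higher and 0 lower (0%), the likelihood ratio test 0 and 0 (0.0413% and 0.348% of all genes), and DESeq2 0 higher and 1, Cxcr6, lower (0.113% and 0.628%). At an unadjusted p of at most 0.05 0 were higher and 5 lower (0.778% and 5.48% of all genes), namely Cxcr6, Xcr1, Ccl5, Ccl22 and Ccr7. Cxcr6, Xcr1 and Ccl5 were lower in all 4 KPC libraries than in all 4 KPC IL6KO libraries (3 of 44, against 3.69% of all genes), and 0 were higher (0.637%). The median log2 fold change over the 44 genes was -0.15, near that of all genes (-0.05). For Ccl8, Ccl6 and Ccl9, which stood high in both tumor groups, the KPC and KPC IL6KO values overlapped.

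The log2 fold change of Cxcr6 in KPC against KPC IL6KO was -2.70 ± 0.87 (FDR 0.664, likelihood ratio FDR 0.0615), -3.38 without KPC 7. Xcr1, the receptor of cross-presenting dendritic cells, had 18, 21, 12 and 51 counts in no tumor, 0, 6, 14 and 6 in KPC and 83, 20, 37 and 69 in KPC IL6KO. At 0 to 0.472 CPM in KPC and 0.686 to 2.11 CPM in KPC IL6KO it did not overlap between the tumor groups (-2.81 ± 0.91, FDR 0.664, likelihood ratio FDR 0.0913, and -3.57 without KPC 7). Ccl5, made by T and natural killer cells, was at 1.31, 3.43, 1.51 and 2.28 CPM in no tumor, 0.788, 0.945, 1.52 and 1.07 CPM in KPC and 4.10, 1.82, 2.94 and 2.38 CPM in KPC IL6KO. Its log2 fold change was -1.38 ± 0.44 against KPC IL6KO (FDR 0.664) and -0.98 ± 0.44 against no tumor (FDR 0.402), where 1 KPC library overlapped. Ccl22, a ligand of Ccr4 from dendritic cells, spanned 0.604 to 2.04 CPM in no tumor, 0.292 to 1.66 CPM in KPC and 0.857 to 6.82 CPM in KPC IL6KO (-1.74 ± 0.71, FDR 0.722, and -1.13 without KPC IL6KO 5). Ccr7, which guides mature dendritic cells to lymph nodes, spanned 0.302 to 0.790 CPM in no tumor and 0.544 to 1.11 CPM in KPC, and was at 4.81, 0.309, 1.31 and 2.38 CPM in KPC IL6KO (-1.60 ± 0.72 in KPC against KPC IL6KO, FDR 0.791, and -0.87 without KPC IL6KO 5). KPC and no tumor overlapped for both Ccl22 and Ccr7. In KPC IL6KO against no tumor Ccr7 had a log2 fold change of 2.00 ± 0.73 (FDR 0.448, likelihood ratio FDR 0.231), or 2.36 ± 0.59 without KPC IL6KO 6 (likelihood ratio FDR 0.00889).

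With KPC IL6KO 6 left out, 2 genes passed the likelihood ratio test as lower in KPC than in KPC IL6KO, Cxcr6 (FDR 0.0266) and Xcr1 (FDR 0.0221), and 0 as higher (1.16% and 1.2% of all genes). In those 7 libraries 9 genes, Cxcr6, Xcr1, Ccl5, Ccl22, Ccr7, Cxcr3, Ccr2, Ccl11 and Ackr3, were lower without overlap (8.49% of all genes) and 2, Cx3cl1 and Ccl28, were higher (8.7%). The log2 fold changes of the last 3 of the 9 were -1.36 ± 0.50 for Ccr2, -1.51 ± 0.82 for Ccl11 and -0.94 ± 0.38 for Ackr3 (likelihood ratio FDR 0.159, 0.420 and 0.274). All KPC libraries but no remaining KPC IL6KO library were then high in Gpx5. With Gpx5 and Crisp1 as covariates over all 12 libraries the log2 fold change was -3.15 for Cxcr6, -2.53 for Xcr1 and -0.85 for Ccl5, whereas Ccl22 came to -0.65 and Ccr7 to 0.05. The dendritic cell markers, all 5 of 5 measured, summed to 11.95 to 25.1 CPM in no tumor, 13.95 to 19.9 CPM in KPC and 18.9 to 48.2 CPM in KPC IL6KO, with 1 at 0 in KPC 5. T cell markers, 7 of 8 measured, summed to 6.44 to 9.36 CPM, 4.98 to 7.71 CPM and 5.49 to 12.7 CPM, with 2 at 0 in KPC 5. Natural killer cell markers, 4 of 5 measured, summed to 3.92 to 649 CPM, 88.5 to 158 CPM and 2.45 to 483 CPM, with 1 at 0 in KPC 5. The medians of this last sum were 167, 114 and 4.49 CPM. Klrb1c had the highest mean level, and 1 of the 4 markers had a positive log2 fold change in each tumor group against no tumor. So uneven a sum is not read as a level of natural killer cells. The part of dendritic, T and natural killer cells in the receptor levels was not tested.

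**Figure D3:**
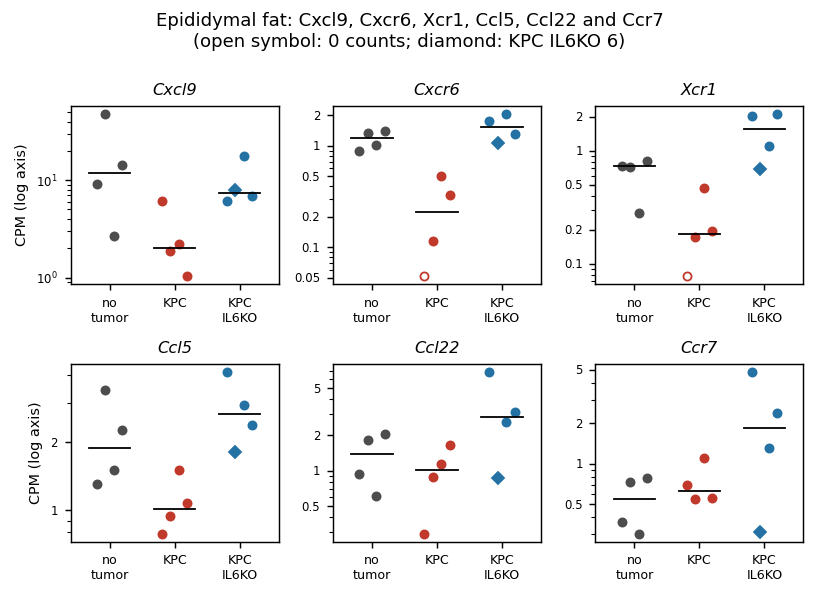
CPM (log axis) of Cxcl9, Cxcr6, Xcr1, Ccl5, Ccl22 and Ccr7 in epididymal fat, 1 point per library with the group median as a bar, open symbols for 0 counts and a diamond for KPC IL6KO 6. The KPC points of Cxcr6, Xcr1 and Ccl5 all lie below the KPC IL6KO points, and those of Ccl22 and Ccr7 overlap them.

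Compared per kb of exon, Ccl6 had the highest mean among ligands in fat in each group, at 22.2 CPM per kb in no tumor, 242 in KPC and 202 in KPC IL6KO. The no tumor mean of Ccl6 leaned on no tumor 6, so its first place in that group is not firm. In no tumor fat Ccl11, the eosinophil ligand (15.2 CPM per kb), and Cxcl12, the ligand of Cxcr4 (13.4 CPM per kb), came next, too near to order, since no tumor 6 held the top of the Ccl11 range of 1.93 to 44.2 CPM. In both tumor groups Ccl8 (104 CPM per kb in each) and Ccl9 (52.6 and 53.7 CPM per kb) took those places. Among receptors Ackr3, an atypical receptor for Cxcl12, led in no tumor fat at 9.48 CPM per kb, and Ccr1 led in KPC at 15.3 CPM per kb. In KPC IL6KO Ccr1 and Ackr3 were at 12.9 and 12.8 CPM per kb, too near to order given their spread.

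Many of these genes lie in clusters. Cxcl5, Cxcl3, Cxcl1 and Cxcl2 lie within 146.6 kb of chromosome 5 (GRCm38, 90759360 to 90905938), and all 4 had positive log2 fold changes in KPC fat. On chromosome 11, Ccl2, Ccl7, Ccl11, Ccl12 and Ccl8 lie within 81.2 kb (82035571 to 82116799), and Ccl11, in their middle, was the only one with a negative value. Its levels were 1.93 to 44.2 CPM in no tumor, 3.37 to 7.59 CPM in KPC and 4.42 to 20.9 CPM in KPC IL6KO. Farther along, Ccl5, Ccl9, Ccl6, Ccl3 and Ccl4 lie within 138.9 kb (83525778 to 83664683), and Ccl5 at its edge was the only one with a negative value. Of the receptor genes that lie near each other on chromosome 9, Cxcr6 and Xcr1 had negative and Ccr1 and Ccr2 positive values in KPC.

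The remaining fat genes are given by their levels. Cxcl12 was at 58.2 to 187 CPM in no tumor, 107 to 270 CPM in KPC and 84.3 to 229 CPM in KPC IL6KO, and Cxcl14 at 7.48 to 20.2, 9.79 to 44.8 and 7.40 to 26.3 CPM. Cxcl10 was at 1.05 to 1.76, 1.62 to 2.61 and 0.743 to 3.30 CPM, so the second Cxcr3 ligand did not share the low KPC values of Cxcl9. Cxcr3 itself was at 0.409 to 1.35, 0.350 to 0.650 and 0.480 to 1.41 CPM. Cxcr4, the Cxcl12 receptor, spanned 1.13 to 15.01 CPM over the 12 libraries, Ackr3 18.7 to 66.0, Ackr4 0.663 to 38.1, Ackr2 0.520 to 4.64 and Cx3cr1 4.64 to 19.9 CPM. Ccl24 spanned 1.16 to 36.6 CPM, Ccl28 0.417 to 19.8, Ccl27a 2.69 to 13.75 and Ccl25 2.51 to 4.75 CPM. All of these overlapped between groups. Ccl17, a ligand of Ccr4, lay higher in KPC (1.57 to 3.09 CPM) than in no tumor (0.491 to 1.502 CPM) without overlap, and spread from 0.206 to 6.63 CPM in KPC IL6KO, with an unadjusted p above 0.05 in each comparison. Without KPC IL6KO 6 its log2 fold change in KPC IL6KO against no tumor was 1.90 (likelihood ratio FDR 0.0465).

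Genes that act with chemokines were read from lists of 27 signaling, 16 adhesion and 10 inducer genes and of 7 relatives with other symbols. In fat the quasi-likelihood test called none of the 25, 15, 7 and 7 measured. In KPC against no tumor the likelihood ratio test called 1 signaling gene higher, Rgs16, which dampens G protein signaling. In KPC IL6KO it called 2 signaling genes (Rgs16 and the kinase Fgr), 2 adhesion genes (Icam1 and the integrin Itgam) and 1 inducer, Il1b, higher. Against KPC IL6KO it called Cd74, the MHC class II invariant chain, lower in KPC.

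In quadriceps, Cxcl13 rose and most other chemokine changes in KPC mice were falls. In KPC against no tumor the quasi-likelihood test called 2 of 21 genes higher, Cxcl13 and Ackr1, and 9 lower, among them Cxcl12, Cxcl14, Cxcl16, Cx3cl1, Ccl11, Ccl24, Ccl25 and Cxcl9. These shares have to be read against the tissue as a whole, since 26.7% of all muscle genes were called higher and 29% lower. Groups did not overlap for 1 of 21 genes upward and 8 downward (32.3% and 33% of all genes). The median log2 fold change was -0.33 over the 21 genes and -0.03 over all genes. In KPC IL6KO against no tumor the quasi-likelihood test called 0 of 21 genes in either direction (0% and 0%), with 2 higher and 1 lower at an unadjusted p of at most 0.05 (2.19% and 4.72% of all genes). The likelihood ratio test called 0 in either direction (0.195% and 0.546%), and so did DESeq2 (0.244% and 0.537%). Groups did not overlap for 3 genes upward and 3 downward, near the background (7.54% and 8.01%). In KPC against KPC IL6KO 3 genes were called higher, Cxcl13, Ackr3 and Ackr2 (26.4% of all genes), and 10 lower, among them the ligands just named and Ccr2 (27.3%). Groups did not overlap for 2 genes upward and 7 downward (31.2% and 30.8%).

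Cxcl13 was at 0.121, 0.294 and 0.410 CPM in no tumor 1 to 3, at 11.9, 3.29, 4.99 and 0.979 CPM in KPC 1 to 4 and at 0.158, 0.140, 0.315 and 0.566 CPM in KPC IL6KO 1 to 4. Every KPC library was above every other library. It rose by a log2 fold change of 4.40 ± 0.87 over no tumor (FDR 0.000852) and of 4.15 ± 0.72 over KPC IL6KO (FDR 0.000346), or 3.61 and 3.37 without KPC 1. The B cell marker Cd79b, the only 1 of 5 measured in muscle, was called lower in KPC. Cxcr5 was not in the muscle table.

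Ligands of stromal and resident cells fell in KPC muscle. Cxcl12, which retains Cxcr4-bearing cells, was at 69.9, 70.7 and 60.6 CPM in no tumor, at 24.2, 35.4, 29.3 and 34.5 CPM in KPC and at 78.7, 86.6, 73.8 and 56.6 CPM in KPC IL6KO. KPC lay below both groups, with a log2 fold change of -1.12 ± 0.16 against no tumor (FDR 9.84e-05) and -1.26 ± 0.15 against KPC IL6KO (FDR 2.71e-05). Cxcl14 had the highest mean per kb among ligands in each muscle group, although in KPC Ccl6 (7.91 against 8.94 CPM per kb) was too near to order given its spread. Cxcl14 was at 49.3, 42.5 and 53.4 CPM in no tumor, 24.7, 18.9, 12.3 and 9.50 CPM in KPC and 44.3 to 60.5 CPM in KPC IL6KO. It fell against no tumor (-1.56 ± 0.26, FDR 0.000285) and against KPC IL6KO (-1.75 ± 0.25, FDR 8.97e-05). All 5 fibroblast markers were called lower in KPC as well, and their sum was 819 to 888 CPM in no tumor, 170 to 278 CPM in KPC and 421 to 664 CPM in KPC IL6KO, with none at 0. Their part in the ligand levels was not tested.

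Cxcl16 was at 1.89, 2.12 and 1.49 CPM in no tumor, 0.631, 0.496, 0.753 and 0.527 CPM in KPC and 1.82 to 2.30 CPM in KPC IL6KO (-1.61 ± 0.22, FDR 6.86e-05, and -1.73 ± 0.21, FDR 2.44e-05). Ccl25, known from the thymus and gut, was at 2.56 to 3.84 CPM in no tumor, 0.753 to 1.59 CPM in KPC and 3.23 to 3.67 CPM in KPC IL6KO (-1.20 ± 0.25, FDR 0.00122, and -1.43 ± 0.23, FDR 0.000222). For both genes every KPC library lay below every library of the other groups. Cx3cl1 was at 1.99, 2.78 and 1.23 CPM in no tumor, 1.46, 1.39, 1.02 and 0.753 CPM in KPC and 2.42, 2.42, 2.50 and 1.42 CPM in KPC IL6KO, with overlap in each comparison. It fell against KPC IL6KO (-0.92 ± 0.30, FDR 0.0164), and against no tumor the call (-0.81 ± 0.32, FDR 0.0408) was lost without no tumor 1 (FDR 0.0924), no tumor 2 (0.234), KPC 3 (0.0782), KPC 4 (0.0824) or KPC IL6KO 1, 2 or 3 (0.0541, 0.0532 and 0.0524).

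Eosinophil ligands fell together. Ccl11 was at 17.0, 16.0 and 16.8 CPM in no tumor, 10.3, 7.81, 4.65 and 5.65 CPM in KPC and 14.3, 12.5, 9.41 and 13.8 CPM in KPC IL6KO. It fell against no tumor (-1.22 ± 0.24, FDR 0.000808) and against KPC IL6KO (-0.81 ± 0.22, FDR 0.00682), where 1 library of each group overlapped. Ccl24, also made by macrophages, was at 1.40, 2.00 and 2.36 CPM in no tumor, 0.185, 0.462, 0.344 and 0.113 CPM in KPC and 0.913 to 1.34 CPM in KPC IL6KO (-2.77 ± 0.39, FDR 8.35e-05, and -2.06 ± 0.37, FDR 0.000426). Of 7 mast cell and eosinophil markers 4 were measured, and 1 was called higher and 1 lower in KPC against no tumor (summed level 8.39 to 10.19, 4.78 to 10.7 and 6.58 to 12.3 CPM in no tumor, KPC and KPC IL6KO).

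Cxcl9 was at 2.39, 3.55 and 1.28 CPM in no tumor, 0.216, 0.736, 0.164 and 0.151 CPM in KPC and 1.28, 0.684, 0.960 and 1.80 CPM in KPC IL6KO. It fell against no tumor (-2.94 ± 0.56, FDR 0.000667, -3.77 without KPC 2) and against KPC IL6KO (-1.89 ± 0.53, FDR 0.00762, -2.72 without KPC 2). Ccr2 was at 0.970, 1.06 and 1.54 CPM in no tumor, 0.693, 1.13, 0.687 and 0.414 CPM in KPC and 3.13, 1.91, 2.22 and 3.17 CPM in KPC IL6KO. It fell in KPC against KPC IL6KO (-1.83 ± 0.31, FDR 0.000269), and KPC IL6KO lay above no tumor without overlap but not past the test (FDR 0.383). Macrophage markers, 7 of 9 measured, were split, 2 called higher and 2 lower in KPC against no tumor, with sums of 82.8 to 116, 38.8 to 149 and 82.1 to 131 CPM in no tumor, KPC and KPC IL6KO.

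Atypical receptors were the other genes called higher in KPC, Ackr1 against no tumor, and Ackr2 and Ackr3 only against KPC IL6KO. Ackr1 was at 2.095, 2.45 and 2.77 CPM in no tumor, 5.10, 3.49, 4.62 and 2.58 CPM in KPC and 2.77 to 4.23 CPM in KPC IL6KO. It rose against no tumor (0.71 ± 0.25, FDR 0.0248), a call lost without no tumor 1 (FDR 0.0887), no tumor 2 (0.0637), KPC 1 (0.0625) or KPC 3 (0.0538). Ackr2, which scavenges inflammatory CC ligands, was at 1.52 to 2.85 CPM in KPC and 0.850 to 1.46 CPM in KPC IL6KO, without overlap (0.95 ± 0.30, FDR 0.0135). Ackr3 stood between 22.7 and 23.9 CPM in no tumor, at 33.5, 15.9, 18.1 and 36.8 CPM in KPC and 14.2 to 16.8 CPM in KPC IL6KO (0.77 ± 0.23 over KPC IL6KO, FDR 0.0115). Every KPC IL6KO library lay below no tumor, whose mean of 23.5 CPM was near the KPC mean of 26.1 CPM. KPC split into 2 high and 2 low libraries, and the call fell under a fold change of 1.5 without KPC 4 (0.56). Without KPC 4 the count of genes higher in KPC than in no tumor was 5, against 2 with all libraries, and without no tumor 1, no tumor 2, KPC 1 or KPC 3 it was 1.

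**Figure D4:**
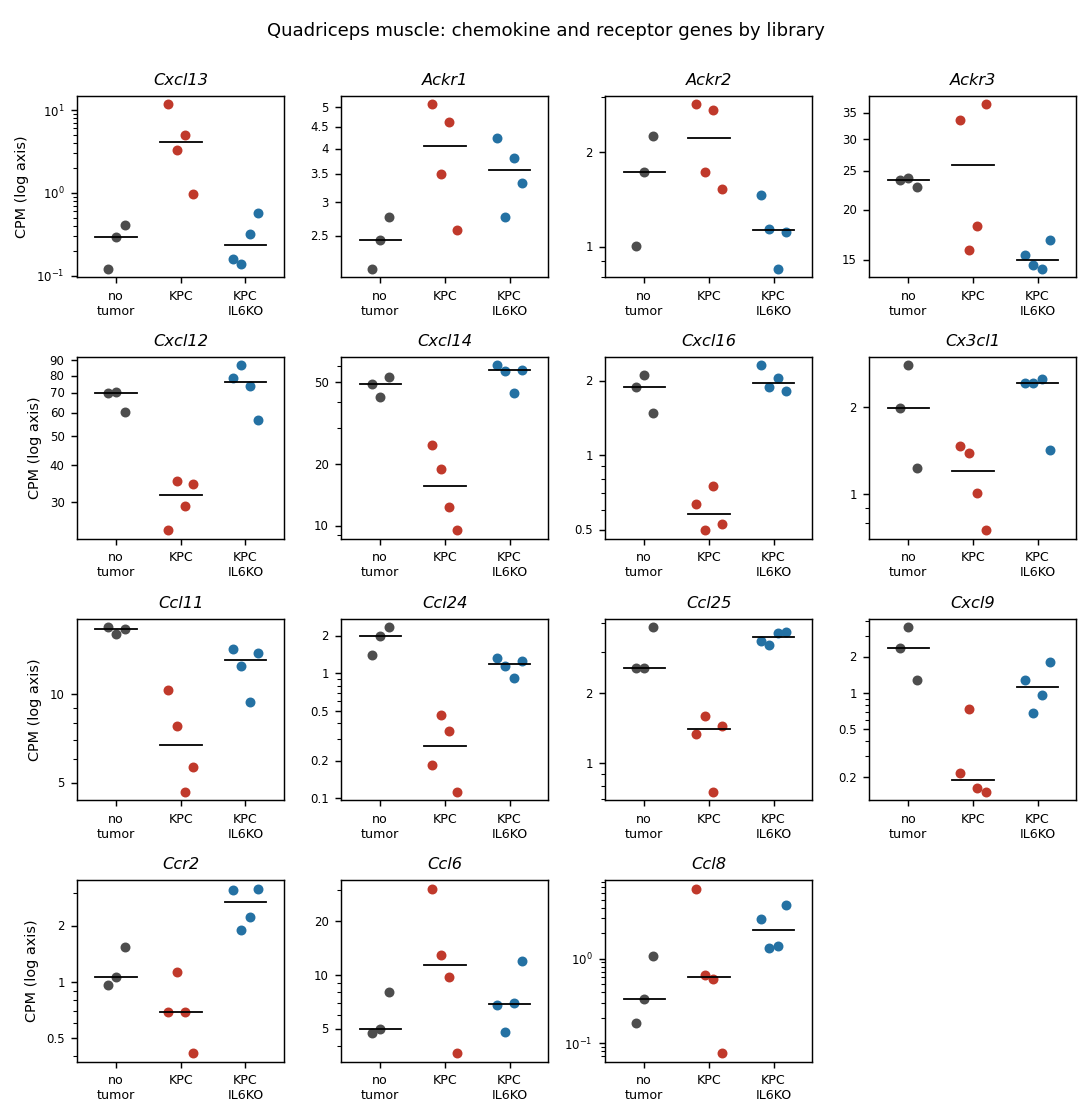
CPM (log axis) of 15 chemokine and receptor genes in quadriceps, 1 point per library (3 no tumor, 4 KPC and 4 KPC IL6KO) and a bar at the group median. The KPC points of Cxcl13 lie above all others and those of Cxcl12, Cxcl14, Cxcl16, Ccl24 and Ccl25 below all others, while Ccl6 and Ccl8 spread widely within KPC.

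The ligands that stood out in fat were variable in KPC muscle. Ccl6 was at 30.4, 12.9, 9.80 and 3.65 CPM in KPC 1 to 4 and 4.74 to 8.04 CPM in no tumor. Ccl8 was at 6.76, 0.633, 0.573 and 0.0753 CPM in KPC, 0.173 to 1.08 CPM in no tumor and 1.35 to 4.29 CPM in KPC IL6KO, and Ccl9 at 2.18 to 11.98, 3.48 to 5.74 and 3.84 to 6.65 CPM. None was called. Of the others not called, Cxcr4 spanned 1.54 to 3.79 CPM over the 11 libraries, Ccl27a 2.59 to 4.49, Ccl19 0.257 to 0.924 and Ccl28 0.293 to 1.37 CPM. Neutrophil markers, 5 of 12 measured, had 4 called higher and 1 lower in KPC, with sums of 2.98 to 4.51, 5.65 to 22.6 and 4.55 to 8.04 CPM in no tumor, KPC and KPC IL6KO. None of Cxcl1, Cxcl2, Cxcl3, Cxcl5 and Cxcr2 was in the muscle table. In KPC against no tumor, 5 of 23 measured signaling genes were called higher (among them Rac1) and 8 lower, 2 of 13 adhesion genes higher (Selp and Icam1) and 6 lower (among them Vcam1), 1 of 5 inducers higher and 3 lower (among them Irf1), and 4 of 6 relatives lower. Against KPC IL6KO these counts were 3 and 10, 0 and 7, 1 and 3, and 0 and 2, and in KPC IL6KO against no tumor 0 of each list was called.

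Whether the response differed between the tissues was tested in 1 fit over all 23 libraries and the 12599 genes in both tables. Of the 21 shared genes, 7 had a response to KPC called lower in muscle than in fat and 0 higher (18.8% and 18.1% of all shared genes). The differences of log2 fold changes, muscle minus fat, included -2.89 ± 0.51 for Cxcl16 (FDR 0.000256), -2.84 ± 0.98 for Ccl24 (0.0268), -2.23 ± 0.63 for Cxcl14 (0.00930), -1.80 ± 0.50 for Cxcl12 (0.00771), -1.62 ± 0.59 for Cx3cl1 (0.0352) and -1.26 ± 0.37 for Ccl25 (0.0106). These 6 had fallen in muscle, and their fat values ranged from near 0 (-0.06 for Ccl25 and -0.04 for Ccl24) to 1.16 for Cxcl16. For Cxcl13 the difference was -0.10 ± 1.48 and for Cxcl9 -0.33 ± 1.04, neither called, with standard errors too wide to show that the tissues responded alike. In KPC IL6KO 0 of 21 differences were called in either direction (0% of shared genes), and the lowest FDR was 0.470. The fit takes the 23 libraries as independent, which would not hold for 2 tissues of 1 mouse. Tissue and library preparation coincide, so levels are not compared between tissues. The Ccl24 call was lost without muscle no tumor 3 (FDR 0.0542), KPC 1 (0.0533) or KPC 4 (0.0526) or fat KPC 6 (0.0515), and the value of Cxcl14 came to -1.47 without fat KPC 5. The Cx3cl1 call was lost without muscle no tumor 1 or 2 or KPC 3 or 4, or without fat no tumor 6 or 8 or KPC 6 or 8 (FDR 0.0544 to 0.119).

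**Figure D5:**
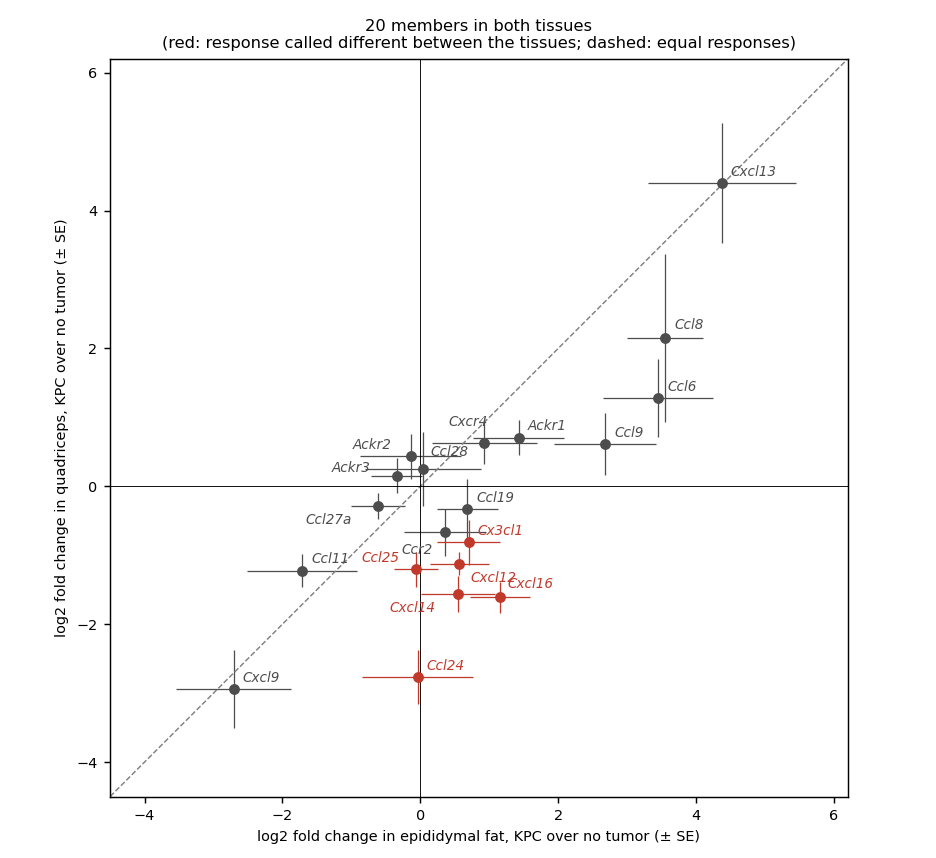
Log2 fold change of KPC over no tumor in quadriceps (vertical) against epididymal fat (horizontal) for 20 of the 21 genes in both tables, with SE bars, the dashed line of equal responses, and in red 6 genes whose responses were called different. The red genes lie below 0 in muscle and from near 0 to 1.16 in fat, and Cxcl13 lies near 4.4 on both axes.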

How the data were processed

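Poly(A) or captured RNA of quadriceps (11 libraries) and epididymal fat (12 libraries) was sequenced, and the labels and the methods name different library kits. The authors deposited raw read counts per gene for each tissue, made with STAR and featureCounts 1.5.1 of the Subread package against mm10, per the labels and the submitters' processing notes, which also name FastQC and edgeR 3.12.1. The rule for low counts by which the 2 tables differ in length, and whether counting used strand, are not given in the sources used here. The authors left out 1 no tumor muscle sample as an outlier. Values of a few genes are not reported here, although counts over all members include them. Every column was mapped to a sample by its label.

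Counts were scaled by TMM and fitted in edgeR 4.0.16 (R 4.3.3, limma 3.58.1) with the 3 groups of a tissue in 1 model, and the quasi-likelihood test was run over the whole table with Benjamini-Hochberg adjustment. A gene was called at an FDR of at most 0.05 and a fold change of at least 1.5. The filter on low counts removed none of the 44 genes. The likelihood ratio test, DESeq2 1.42.0, the newer quasi-likelihood fit, other scaling and filters, only the groups compared, a replicate block, Gpx5 and Crisp1 as covariates and leaving out each library were alternatives. Leaving KPC IL6KO 6 out of the likelihood ratio test was added after seeing the data. The response of muscle minus that of fat was tested as an interaction in 1 fit.

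Members, roles and gene lists were chosen with earlier results of these data known. Fitted changes are printed for pairs of gene and comparison called in muscle, or with an unadjusted p of at most 0.05 in fat, and the others as levels. SE is the size of the log2 fold change divided by the square root of the quasi-likelihood F statistic. For genes near 0 counts it therefore also depends on the prior count. Each library of a tissue is taken as a mouse of its own. Counting error alone is covered by the floor of 3 counts. Promoters are those of RefSeq on GRCm38.p6, and exon lengths those of GENCODE on GRCm38. The scripts were tested on simulated data with 200 changed genes. Python 3.11.15, pandas 2.3.3 and matplotlib 3.10.9 were used. Replicate numbers were not taken as pairs in the main fit. The correlation of same-numbered libraries' deviations spanned -0.167 to 0.275 (muscle) and -0.573 to 0.585 (fat). Values for libraries with different numbers are not set beside these, so pairing is neither shown nor excluded.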

Additional observations from a re-analysis of the deposited data

Results flagged for a closer look

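Among 103 groups of 4 libraries, 6 were listed as holding a library far from the other 3 by Dixon's criterion, which chance gives in about 1 of 20 groups. The 103 include groups of genes not reported here, and any flags of those genes are left out of the 6. The share of flagged groups is therefore a lower bound. In fat, Ccl12 was at 12.76 CPM and Cxcl13 at 112.6 CPM in KPC 5, with the nearest KPC libraries at 5.592 and 22.34 CPM. Cxcl9 was at 17.89 CPM in KPC IL6KO 7, against 7.955 CPM in the next library of that group, and Xcr1 was at 0.279 CPM in no tumor 7, against 0.7265 CPM. In muscle, Cx3cl1 was at 1.423 CPM in KPC IL6KO 4, against 2.42 CPM in the next library, and Cxcl9 at 0.736 CPM in KPC 2, against 0.2156 CPM.

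The response to KPC, tested as an interaction (edgeR quasi-likelihood test), was called lower in muscle than in fat for 7 of 21 genes (18.8% of all shared genes). The differences of log2 fold changes included -2.886 for Cxcl16, -2.843 for Ccl24, -2.23 for Cxcl14, -1.798 for Cxcl12, -1.623 for Cx3cl1 and -1.262 for Ccl25. For Cxcl16, Cxcl14, Cxcl12 and Cx3cl1 the fitted change was negative in muscle and positive in fat. None of these fat changes was called by the quasi-likelihood test. In fat Cxcl14, Cxcl12 and Cx3cl1 overlapped no tumor and had an unadjusted p above 0.05, so a rise there was not shown. Cx3cl1 in fat followed the split in Gpx5, and its interaction call was lost when any of several single libraries was left out.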

How the results depend on the processing

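The fat counts depended on the test. In KPC against no tumor, where 0 of 44 genes were called higher, the newer quasi-likelihood fit called 1, the fit of only the groups compared 10, and the covariates Gpx5 and Crisp1 3 (Ccl8, Ccl6 and Cxcl13). Shares over all genes were not computed for these 3 settings, so their counts cannot be set against a background. The likelihood ratio test called 13 (1.58% of all genes), DESeq2 14 (2.16%) and the likelihood ratio test without KPC IL6KO 6 16 (2.51%). Lower were 1, 2 and 1 by the likelihood ratio test, DESeq2 and the likelihood ratio test without KPC IL6KO 6 (0.855%, 1.31% and 1.02%). In KPC IL6KO against no tumor, higher were 10, 12 and 18 by the same 3 tests (1.23%, 1.7% and 5.17%). In KPC against KPC IL6KO lower were 1 by DESeq2 (0.628%) and 2 by the likelihood ratio test without KPC IL6KO 6 (1.16%). Leaving out 1 library at a time gave 0 to 1 genes higher in each tumor group against no tumor in fat and 1 to 5 in muscle for KPC. Asking for at least 10 counts in every library, which tests fewer genes, left 1 gene higher in muscle. Ccr7 in KPC against KPC IL6KO fat turned to 0.04704 under the covariates. Apart from the tests' own construction the cause was not tested. Whether replicate numbers mark pairs could not be decided. With the replicate block, 2 genes were called higher and 8 lower in KPC muscle against no tumor, 3 and 10 against KPC IL6KO, and 0 in fat, and only Cx3cl1 against no tumor was lost (-0.62, FDR 0.0623). Of the other values for single genes, 1452 kept direction and side of the threshold, 102 passed it where they had not and 28 no longer did. Depth limits what can be said of Cxcl3, Cxcr2 and Cxcl17 in no tumor fat, which had 0 to 5 counts per library.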
